A study of Mus musculus with 6 samples.

Results

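Nuclear genes for the mitochondrial respiratory chain and ATP synthase were examined in RNA from isolated alveolar type II cells, which make the lung's surfactant. The genes were chosen by symbol alone: names beginning with Ndufa, Ndufb, Ndufc, Ndufs, Ndufv, Uqcr or Atp5, the 4 succinate dehydrogenase genes, Cycs, and the Cox4 to Cox8 genes. They came to 91 of the 18193 genes that a probe set of the array names alone. By known function 34 belonged to complex I, 4 to complex II, 8 to complex III, 18 to complex IV and 17 to ATP synthase, 1 (Cycs) encodes cytochrome c, and 8 were complex I assembly factors (Ndufaf). Ndufa4l2 shared only its symbol, being no known subunit. Ndufa4, now assigned to complex IV, was counted there. Complex I genes Ndufs6 and Ndufa11 had only probe sets naming several genes and were not counted.

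Each of the 6 arrays held RNA pooled from isolated type II cells, with 3 independent pools per group. All mice were Insig1 flox/flox and Insig2 -/-, were 2 months old and had doxycycline between E6.5 and E12.5 according to the labels. In the deleted group (Insig1 ∆/∆) a SpC-rtTA transgene and Otet-CRE together removed Insig1. Doxycycline was given only before birth, and which lung cell types lost Insig1 was not examined here. Controls lacked one of these transgenes, so Cre activity and Insig1 loss cannot be told apart. How many mice made up a pool is not stated.

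As a check of the labels, the Insig1 probe set read 1252.5, 1442 and 1750 in the deleted pools and 2300.1, 3325 and 2960 in the controls. Every deleted pool lay lower, with a log2 fold change of -0.95 ± 0.18 (SE) and an adjusted p of 0.068 (limma). Where this probe set lies relative to the deleted sequence is not known here. The type II marker Sftpc read between 80090 and 143129 across the pools. Array medians lay between 426 and 479, and control replicate 3 stood farthest from the rest on the first principal component (-39.1, the other pools between -12.9 and 18.7).

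The respiratory chain passes electrons from NADH (complex I) or succinate (complex II) through ubiquinone, complex III and cytochrome c to oxygen at complex IV. Complexes I, III and IV pump protons, and ATP synthase uses the gradient to make ATP. Most subunits are nuclear genes that are controlled in part by the transcription factors NRF1, GABPA, YY1 and ERRA. Surfactant synthesis and secretion make type II cells metabolically active and rich in mitochondria. INSIG proteins restrain SREBP, the regulator of sterol and fatty acid synthesis, and the mevalonate route it controls also supplies the side chain of ubiquinone and the farnesyl group of the heme of complex IV.

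One feature that the symbols do not define was the promoter sequence. RefSeq windows (GRCm38.p6, 250 bases before to 50 after a start) matched 75 of the 91 genes. The core motif of NRF1, searched like all motifs on both strands, was present in 22.7% of these 75 genes, against 10.8% of the 10404 tested genes with a window and 5.19% of all 27025 genes. The 17 genes holding it included 6 of 15 ATP synthase genes with a window, 5 of 31 complex I genes and 1 of 13 complex IV genes. A YY1 match (AAGATGGCG) lay in 9.33% of the 75 genes (7 genes) and in 3.24% of tested genes. An ERRA match (TCAAGGTCA) lay in 2.67% (only 2 genes) and 0.365%. The ETS letters of GABPA (CCGGAAGT) lay in 6.67% and 8.35%, and the E-box CACGTG in 8% and 11.3%. The SREBP site TCACCCCAC lay in 0 of the 75 genes and in 0.644% of tested genes. The 75 genes include Ndufb4, which held an NRF1 match, Cox7b2 and Cox8b, and these were not among the tested genes. A match is a run of letters and not a shown binding site. The 3 windows below belong to genes described further on. Sdha held 3 NRF1 matches, Ndufc1 a YY1 match and Atp5md no match, with matched letters in capitals.

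Sdha, chr13:74350191-74350490, minus strand: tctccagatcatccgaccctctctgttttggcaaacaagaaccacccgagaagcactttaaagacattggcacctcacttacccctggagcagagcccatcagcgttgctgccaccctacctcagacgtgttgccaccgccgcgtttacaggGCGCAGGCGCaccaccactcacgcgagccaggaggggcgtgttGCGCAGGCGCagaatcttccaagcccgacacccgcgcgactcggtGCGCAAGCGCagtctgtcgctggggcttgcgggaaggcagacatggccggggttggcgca
Ndufc1, chr3:51408906-51409205, minus strand: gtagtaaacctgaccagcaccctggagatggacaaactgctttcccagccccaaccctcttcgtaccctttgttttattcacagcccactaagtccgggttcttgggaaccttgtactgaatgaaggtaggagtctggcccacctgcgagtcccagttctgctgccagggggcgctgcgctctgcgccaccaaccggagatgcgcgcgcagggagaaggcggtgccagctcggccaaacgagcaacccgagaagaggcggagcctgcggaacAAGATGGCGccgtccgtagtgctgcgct
Atp5md, chr19:47090598-47090897, minus strand: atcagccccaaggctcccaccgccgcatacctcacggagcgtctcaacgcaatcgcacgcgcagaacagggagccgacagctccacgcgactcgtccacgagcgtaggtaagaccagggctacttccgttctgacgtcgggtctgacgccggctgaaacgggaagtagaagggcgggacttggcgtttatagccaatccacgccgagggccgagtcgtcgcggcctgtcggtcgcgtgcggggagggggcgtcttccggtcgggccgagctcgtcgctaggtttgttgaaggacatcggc

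Transcripts of the respiratory chain and ATP synthase were not found to differ between Insig1-deleted and control isolates. Of the 91 genes 87 passed the filter on dim probe sets and were tested, each on its brightest probe set. None was called higher or lower (limma, adjusted over all 12952 genes), where 0.649% of all genes were called, 81 higher (0.625%) and 3 lower (0.0232%). The lowest adjusted p among the 87 was 0.19. Below an unadjusted p of 0.05 there was 1 gene higher (Sdha) and 1 lower (Atp5md), against 12.1% of all genes, 6.05% higher and 6.02% lower. Values above and below 0 were nearly balanced, at 43 and 44, and the median log2 fold change was -0.0052, beside -0.0049 for all genes tested.

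For most of the genes the estimates were narrow enough to bound the change. The standard error of the log2 fold change had a median of 0.12 in these genes and 0.18 in all genes tested. In 73 of 87 genes (83.9%) the 95% interval lay within a 1.5-fold change either way, which 48.9% of all tested genes had. In 86 of 87 it lay within 2-fold, Cox7c being the exception. These intervals are per gene and unadjusted, and they do not cover the choice of array scaling. The probe sets were bright, with a median mean log2 signal of 13.3 against 10.8 for all genes. In 55 of 87 genes the estimate was smaller than 0.1 on the log2 scale in either direction.

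**Figure D1:**
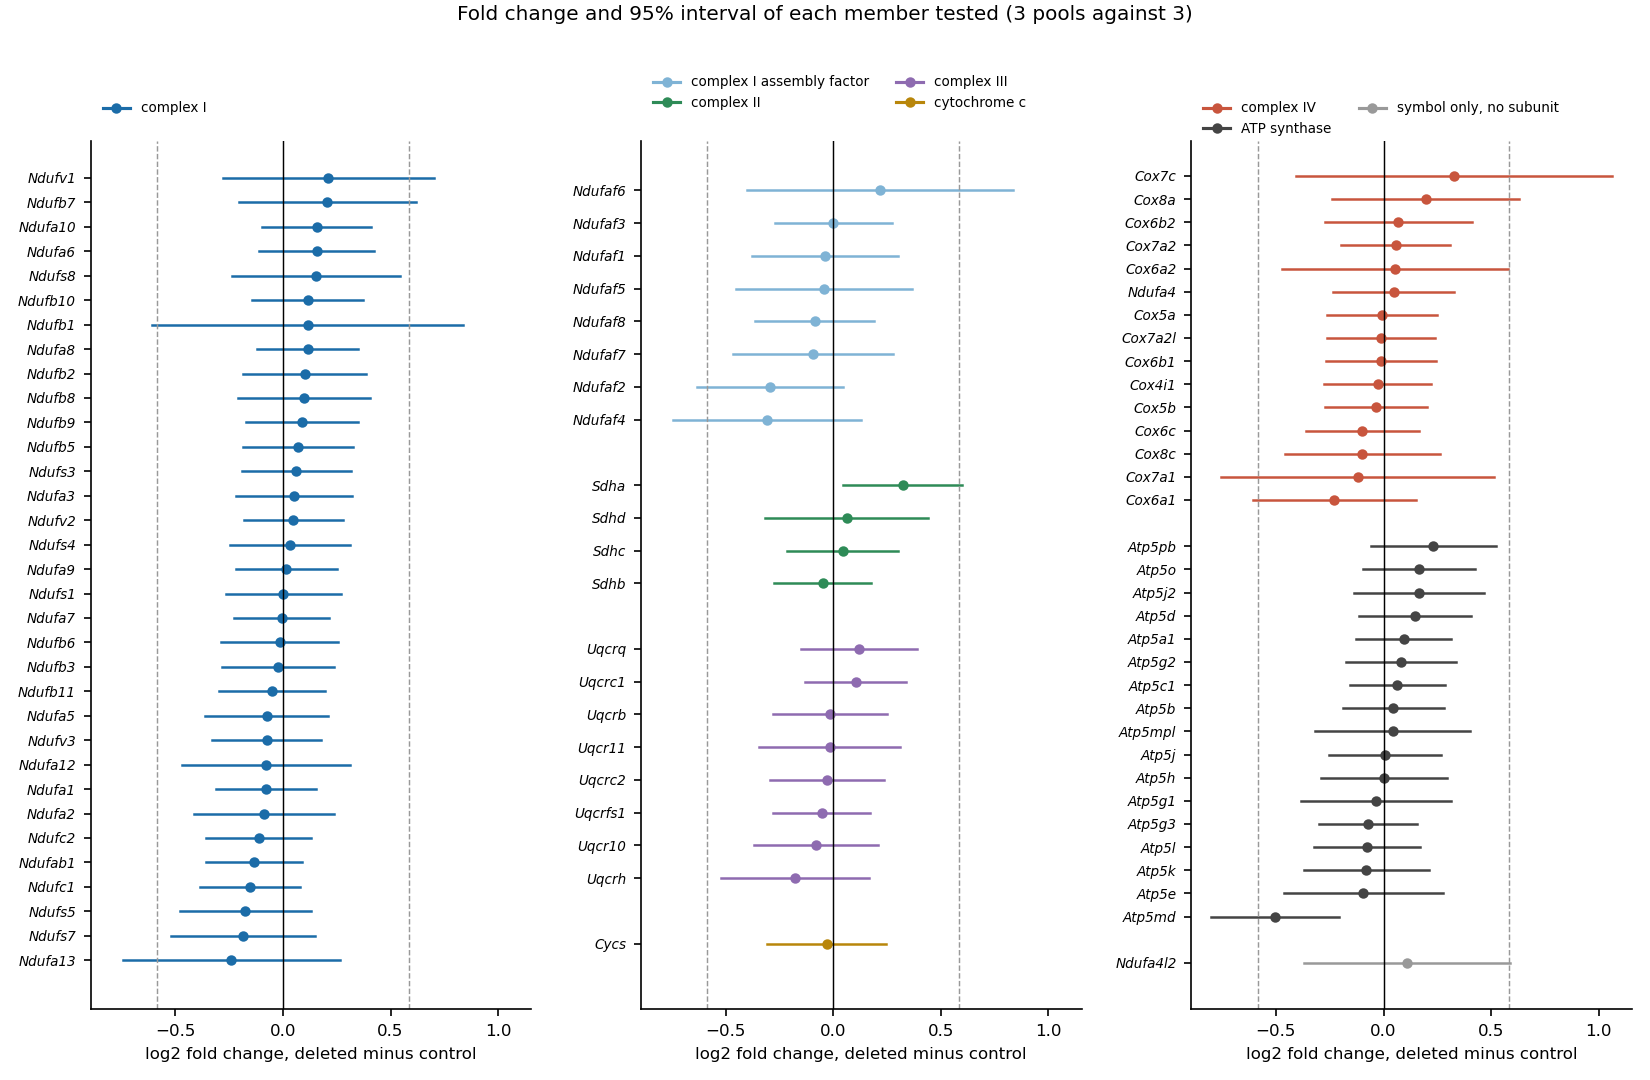
Log2 fold change (deleted minus control, x axis) of each of the 87 genes tested, by complex, with its unadjusted 95% interval from limma, 3 pools against 3. Dashed lines mark a 1.5-fold change. The intervals of Atp5md (below) and Sdha (above) alone leave out 0.

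Complex I takes electrons from NADH. Of its 34 genes 33 were tested, 18 with values above and 15 below 0, and the median log2 fold change was 0.02. None was called and none had an unadjusted p under 0.05. The 3 genes of the NADH-oxidising arm lay at 0.21 ± 0.22 for Ndufv1, which binds the flavin, 0.05 ± 0.10 for Ndufv2 and 0.002 ± 0.12 for Ndufs1. The brightest Ndufv1 probe set spread widely in controls, at 5964, 11832 and 7130, around deleted pools at 8789, 9477 and 9378. A dimmer one kept the groups apart, at 8179, 7419 and 8083 in controls and 8559, 9103 and 9083 in deleted pools (log2 0.18). Among iron-sulphur subunits near the ubiquinone site the values were 0.06 ± 0.11 for Ndufs3, 0.15 ± 0.17 for Ndufs8 and -0.19 ± 0.15 for Ndufs7. A second Ndufs7 probe set gave 0.14. All 6 Ndufs8 probe sets had values above 0, from 0.09 to 0.33. One of the dimmer ones separated the groups, at 2623, 2990 and 2716 in controls and 3250, 3466 and 3471 in deleted pools (0.29 ± 0.12, limma adjusted p = 0.46 over all probe sets).

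The accessory subunits of complex I, which surround the catalytic core, were balanced, with 13 of 26 tested above and 13 below 0. They ran from -0.24 ± 0.22 (Ndufa13, also known as the cell death regulator GRIM-19) to 0.21 ± 0.18 (Ndufb7). The Ndufa13 value leaned on 1 pool, deleted replicate 3 reading 15756 where the other 5 read between 24654 and 31854. Ndufb1 had a dim probe set and the widest interval of the complex, with 1037 in deleted replicate 1 and 429 to 673 elsewhere.

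Ndufc1, an accessory subunit of the membrane arm, and Ndufab1, the mitochondrial acyl carrier protein that also serves fatty acid synthesis in the organelle, were the complex I genes whose groups did not overlap on the brightest probe set. Ndufc1 read 12907, 14666 and 12923 in controls and 11779, 12189.5 and 12356 in deleted pools. Every deleted pool lay lower, but the log2 fold change was -0.15 ± 0.10 (limma adjusted p = 0.60) and a second probe set gave 0.01. Ndufab1 read 9461, 9019 and 8891 in controls and 7936, 8628 and 8378 in deleted pools. Its deleted pools were slightly lower, at -0.13 ± 0.10 (limma adjusted p = 0.65), and its next probe set gave -0.01. On dimmer probe sets the groups were also apart for Ndufc2, another membrane arm subunit (-0.13 ± 0.10), as for Ndufv1 and Ndufs8 above.

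Few genes had groups that did not overlap. There were 5 of 87 (5.75%), 1 higher (Sdha) and 4 lower (Atp5md, Ndufc1, Ndufab1 and the assembly factor Ndufaf2), where 17.1% of all tested genes had them, 9.2% higher and 7.9% lower. The counts moved with the scaling, at 8 higher and 1 lower with each array shifted to a common median and 1 higher and 7 lower with quantile normalization. The 5 genes named here kept their own sign in all 15 alternatives. Most of these could not change it, since leaving out or weighting pools keeps the sign where groups do not overlap. Only quantile normalization, the common median and the mean over probe sets could have changed a sign. The shift to a common median also moved the median of the 87 genes to 0.073 and that of all genes to 0.074.

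Complex I assembly factors build the complex and are not part of it. All 8 were tested, with 2 values above 0 and 6 below, a median log2 fold change of -0.06 and none called. Ndufaf2 read 1679, 1634 and 1755 in controls and 1569, 1388 and 1194.5 in deleted pools. All deleted pools were lower, at -0.30 ± 0.15 (limma adjusted p = 0.47). Ndufaf4 had the lowest value, -0.31 ± 0.19, where control replicate 3 read 2396 and the other 5 pools between 1380.5 and 1590. Ndufaf6 had the highest, 0.22 ± 0.27.

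Complex II, succinate dehydrogenase, links the citrate cycle to the chain. Sdha encodes its flavoprotein, the catalytic subunit, and read 9478, 8963 and 8011 in controls and 9678, 12014.5 and 11442 in deleted pools. Every deleted pool lay above every control. The log2 fold change was 0.32 ± 0.12 (95% interval of the fold 1.03 to 1.51), with an adjusted p of 0.35 (limma). A second Sdha probe set also separated the groups, with 6124, 6341 and 5089 in controls and 6574, 7174 and 6856 in deleted pools (0.24 ± 0.12). The other subunits lay near 0, at -0.05 ± 0.10 for the iron-sulphur subunit gene Sdhb and 0.04 ± 0.11 and 0.06 ± 0.17 for the membrane anchor genes Sdhc and Sdhd. Their groups overlapped. Whether Sdha differed from the other subunits of its complex was not tested.

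**Figure D2:**
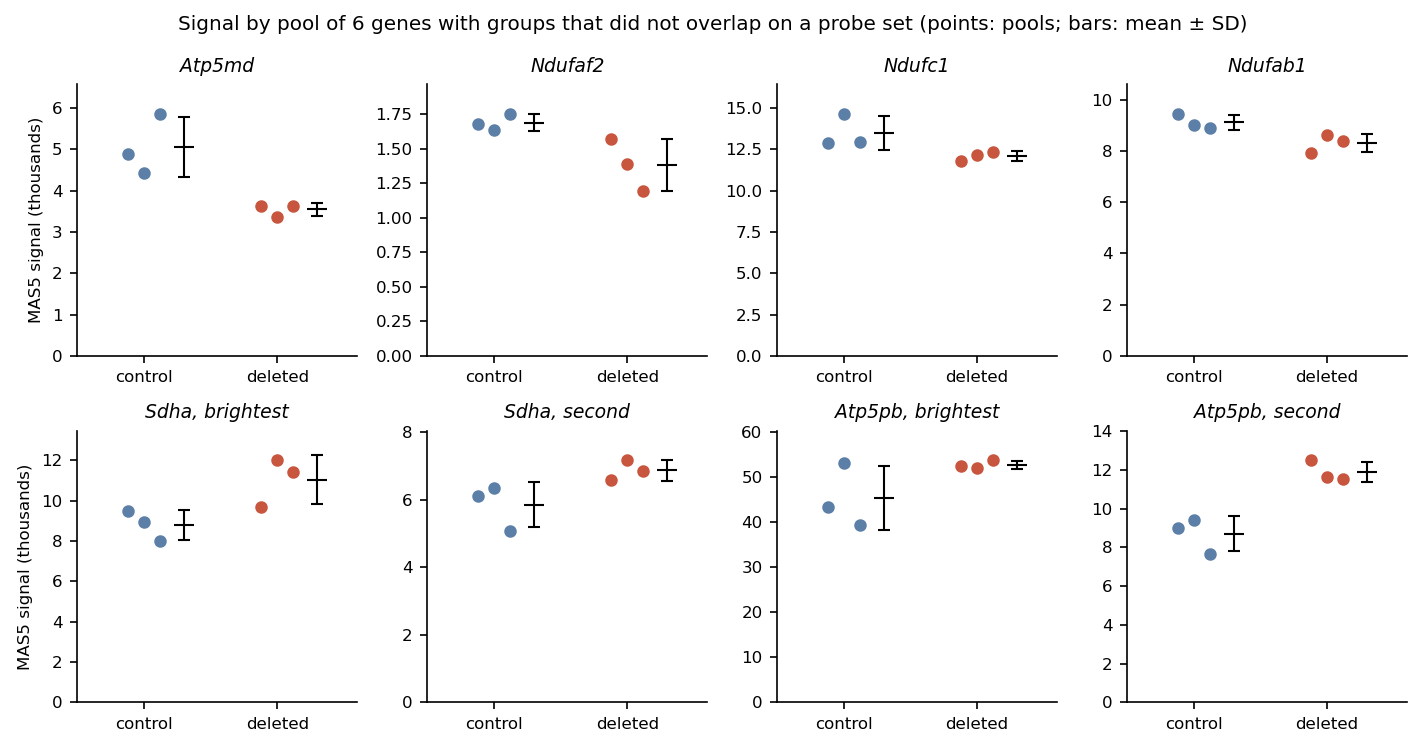
MAS5 signal (y axis, scaled as labelled) in each of the 3 control and 3 deleted pools for 6 genes, with mean ± SD. Ndufv1, Uqcrh and other genes whose groups were apart only on a dimmer probe set are not drawn, except Atp5pb. Sdha separated on both probe sets shown, Atp5pb on the second only, and Atp5md read 3360 to 3635 in deleted and 4426 to 5861 in control pools.

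Complex III hands electrons from ubiquinol to cytochrome c. All 8 genes were tested, with 2 above 0 and 6 below, a median of -0.02 and none called or separated on the brightest probe set. The range was small, from -0.18 ± 0.15 for Uqcrh, the hinge protein, to 0.12 ± 0.12 for Uqcrq. Uqcrfs1, the Rieske iron-sulphur protein, stood at -0.05 ± 0.10, and the core protein genes Uqcrc1 and Uqcrc2 at 0.10 ± 0.10 and -0.03 ± 0.12. All 8 intervals lay within 1.5-fold. A second Uqcrh probe set separated the groups, at 13765, 13683 and 14087 in controls and 10467, 13434 and 12227 in deleted pools (-0.21). Cycs, the mobile carrier cytochrome c, read 30809, 31655 and 39828 in controls and 32524, 33031 and 33888 in deleted pools. The groups overlapped, with control replicate 3 highest, and the log2 fold change was -0.03 ± 0.12, with -0.07 and -0.10 on 2 dimmer probe sets.

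Complex IV, cytochrome c oxidase, reduces oxygen. Of 18 genes 15 were tested, 6 above and 9 below 0, with a median log2 fold change of -0.01 and none called or separated on the brightest probe set. Of 10 subunits with no tissue-specific role 7 lay within 0.1 of 0 on the log2 scale, among them -0.03 ± 0.11 for Cox4i1, -0.01 ± 0.11 for Cox5a, -0.04 ± 0.11 for Cox5b, -0.01 ± 0.11 for Cox6b1 and 0.06 ± 0.11 for Cox7a2. Dimmer probe sets of Cox5a and Cox5b separated the groups, at 0.16 ± 0.10 and, on a dim one, at -0.49 ± 0.23. Cox8a stood at 0.20 ± 0.19, with 0.11 ± 0.10 on a second probe set whose groups were apart. Cox7a2l, which joins complexes III and IV into supercomplexes, stood at -0.01 ± 0.11. The lowest value was that of Cox6a1 (-0.23 ± 0.17), where control replicate 3 read 47648 and the other pools between 28437 and 36133. A second Cox6a1 probe set gave 0.04. Cox7c had the highest, 0.33 ± 0.33, on a dim probe set with signals from 201 in control replicate 1 to 409 in deleted replicate 3.

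Tissue-specific isoforms of complex IV gave no call either. Cox6a2, the heart and skeletal muscle form of subunit VIa, read 6755, 5670.5 and 3394.5 in controls and 5770.3, 5581.5 and 4514 in deleted pools (0.05 ± 0.23). The spread within controls exceeded the difference between groups. Cox7a1, another muscle form, had a dim probe set at -0.12 ± 0.28. The testis forms Cox6b2 and Cox8c stood at 0.07 ± 0.15 and -0.10 ± 0.16. A dimmer Cox8c probe set gave -1.07 with wide scatter among deleted pools (246, 568 and 146). Cox4i2, an oxygen-responsive form known from lung, Cox8b, a muscle form, and Cox7b2 lay below the filter, with mean control signals of 252, 41.9 and 101, and so did Ndufb4 of complex I (233.5), so they were not tested. Striated muscle markers had summed signals of 31160, 20645 and 16095 in controls and 12447, 18427 and 18644 in deleted pools. Their part in the isoform values was not tested.

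ATP synthase had 17 genes, all tested, with 11 above and 6 below 0 and a median of 0.04. None was called. The catalytic head genes Atp5a1 and Atp5b stood at 0.09 ± 0.10 and 0.05 ± 0.10, and the central stalk genes Atp5c1, Atp5d and Atp5e at 0.06 ± 0.10, 0.15 ± 0.12 and -0.09 ± 0.16. Atp5g1, Atp5g2 and Atp5g3, which encode the same mature c-ring protein behind different import sequences, gave -0.03 ± 0.15, 0.08 ± 0.11 and -0.07 ± 0.10. The peripheral stalk genes Atp5h, Atp5j, Atp5o and Atp5pb gave 0.003 ± 0.13, 0.01 ± 0.11, 0.16 ± 0.11 and 0.23 ± 0.13.

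Atp5md, a small membrane subunit that helps hold ATP synthase dimers together, had the largest difference of the 87 genes. It read 4878, 4426 and 5861 in controls and 3635, 3360 and 3629 in deleted pools. The groups were well apart, with the 3 deleted pools close together, on the single probe set that names the gene. The log2 fold change was -0.50 ± 0.13, a fold of 0.705 (95% interval 0.574 to 0.866), with an adjusted p of 0.19 (limma). Without control replicate 2 it was -0.60 and passed the threshold (adjusted p = 0.042), in a fit that called 477 genes of all. Over all alternatives its adjusted p ran from 0.042 to 0.597. Atp5mpl, another small membrane subunit, stood at 0.04 ± 0.16, the dimer subunits Atp5k and Atp5l at -0.08 ± 0.13 and -0.08 ± 0.11, and subunit f (Atp5j2) at 0.16 ± 0.13. Dimmer Atp5j2 probe sets gave -0.001 and -0.18.

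Atp5pb, the stalk subunit b, had the highest value of ATP synthase, and its 2 probe sets differed in how well they separated the groups. The brightest read 43306, 53088 and 39411 in controls and 52385, 52041 and 53727 in deleted pools, which overlapped through control replicate 2. The dimmer read 9025, 9438 and 7681 in controls and 12506, 11658.5 and 11509 in deleted pools. There every deleted pool was higher (log2 0.45 ± 0.12), with a limma adjusted p of 0.24 over the 27022 probe sets past the filter.

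The genes' other probe sets gave no call either. In all there were 183 probe sets, 161 of them past the filter, and none was called by limma where 0.322% of all probe sets were. Below an unadjusted p of 0.05 lay 3 higher and 2 lower probe sets, against 10.2% of all. Groups did not overlap on 7 probe sets higher and 7 lower of the 161, where 15.6% of all probe sets had this (7.69% higher and 7.88% lower). Of 48 genes with several probe sets past the filter, 19 had values of both signs. Beyond Cox8c, the widest gap was that of Ndufb2, from 0.02 to 0.59. Many of these genes have processed pseudogenes. By the array's suffixes 12 (s) and 8 (x) of the brightest probe sets share sequence with other transcripts and 32 (a) match several transcripts of a gene, so some can take up signal from related sequences.

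The pools varied within each group. The deviation of each gene from its own mean over the 6 pools had a median over the 87 genes of -0.01, 0.08 and -0.04 in control replicates 1, 2 and 3 and of -0.06, 0.07 and 0.004 in deleted replicates 1, 2 and 3. Control replicate 2 was the highest pool for 32 genes, and deleted replicate 1 and control replicate 3 were the lowest for 26 and 23. All genes tested had pool medians between -0.01 and 0.03. In complex I the pools ran from -0.08 (control replicate 3) to 0.13 (control replicate 2), and in ATP synthase from -0.12 (control replicate 3) to 0.08 (deleted replicate 3). Complex II had its highest medians in deleted replicates 2 and 3 (0.13 and 0.08) and its lowest in control replicates 2 and 3 (-0.12 and -0.13), while deleted replicate 1 lay at -0.05 and control replicate 1 at 0.03.

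**Figure D3:**
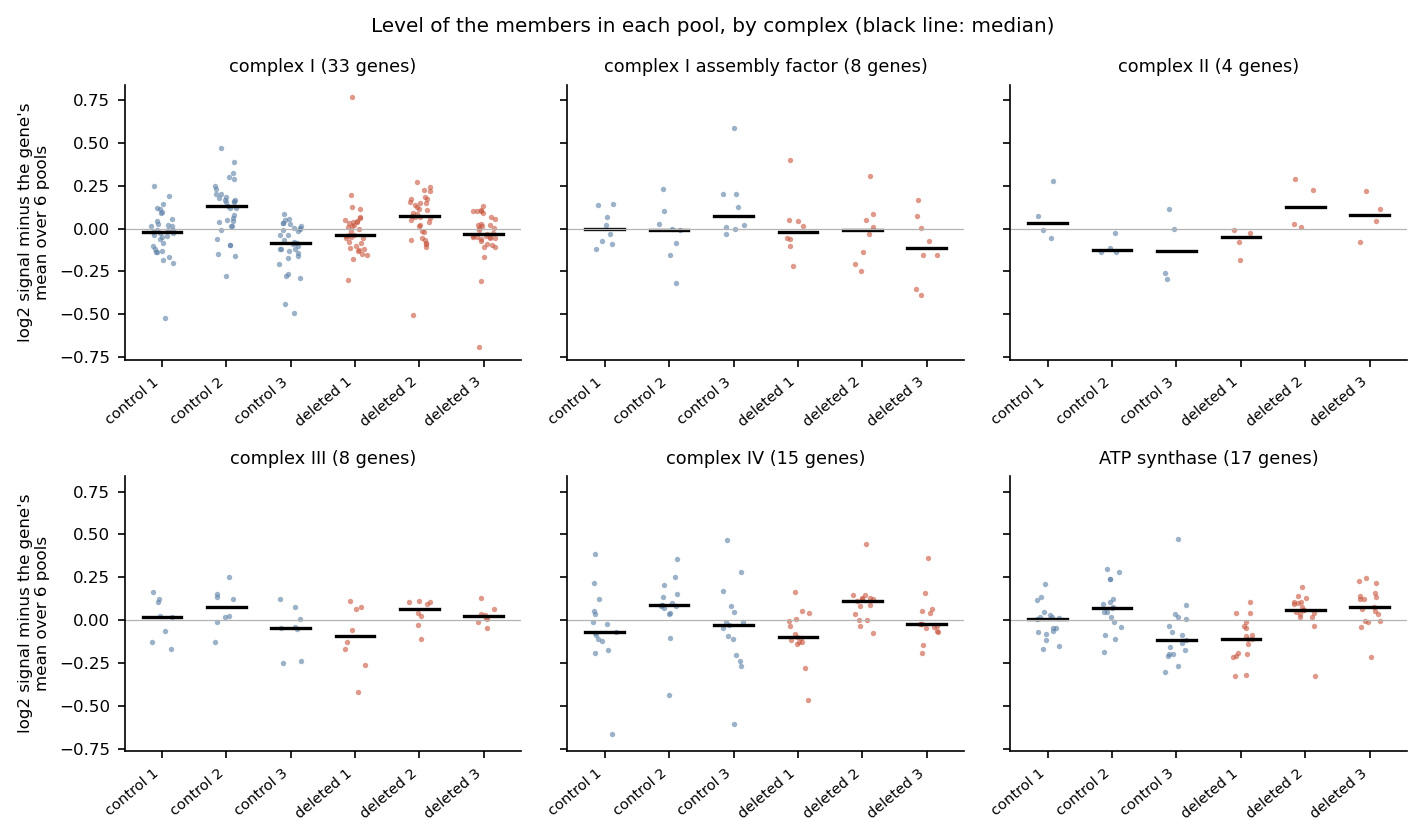
Log2 signal of each gene minus its mean over the 6 pools (y axis) in every pool, by complex, with the median as a black line. Control replicate 2 and deleted replicate 2 lay high in complex I (0.13 and 0.07), and no complex had all deleted medians on one side of all control medians except the assembly factors, whose lowest control and highest deleted median were both -0.01.

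Genes that serve the chain from outside these symbols gave no calls by limma. Of all tested genes 0.649% were called and 12.1% had an unadjusted p under 0.05. Of 37 tested assembly factors of all complexes whose symbols lie outside the rule, some of them for complex I, none was called, and 1 in each direction had an unadjusted p below 0.05 (median log2 fold change 0.05). Sco2, a copper chaperone of complex IV, read 6169, 3805 and 5868 in controls and 2838, 3447 and 2879 in deleted pools. All deleted pools were lower, at -0.76 ± 0.19 (adjusted p = 0.17). Bcs1l, which inserts the Rieske protein, stood at 0.57 ± 0.21. Of 12 ubiquinone synthesis genes none was called and 1 was lower at an unadjusted p under 0.05 (median 0.03). It was Coq4, at 1682, 1427 and 1924 in controls and 1294, 1263 and 1245 in deleted pools (-0.39 ± 0.15, limma adjusted p = 0.36). Pdss2, a subunit of the enzyme that makes the isoprenoid side chain, stood at -0.49 ± 0.24.

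Regulators of mitochondrial biogenesis (20 tested, median 0.04) had no call and 1 gene at an unadjusted p under 0.05. It was Gabpa, at -0.29 ± 0.12, and Twnk, the mitochondrial DNA helicase, stood at 0.31 ± 0.17. Mitochondrial ribosomal proteins (75 tested, median 0.01) had no call and likewise Mrpl19 (0.36 ± 0.16) and Mrps9 (-0.32 ± 0.12) below that level. Heme synthesis genes with Cyc1 and Hccs (9 tested, median -0.05) and carriers and porins (7 tested, median -0.09) had none at either level. Cyc1, cytochrome c1 of complex III, stood at 0.10 ± 0.10, the heme enzyme gene Fech at -0.46 ± 0.41, the porin gene Vdac1 at -0.17 ± 0.12 and the ATP synthase inhibitor gene Atpif1 at -0.09 ± 0.10.

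**Figure D4:**
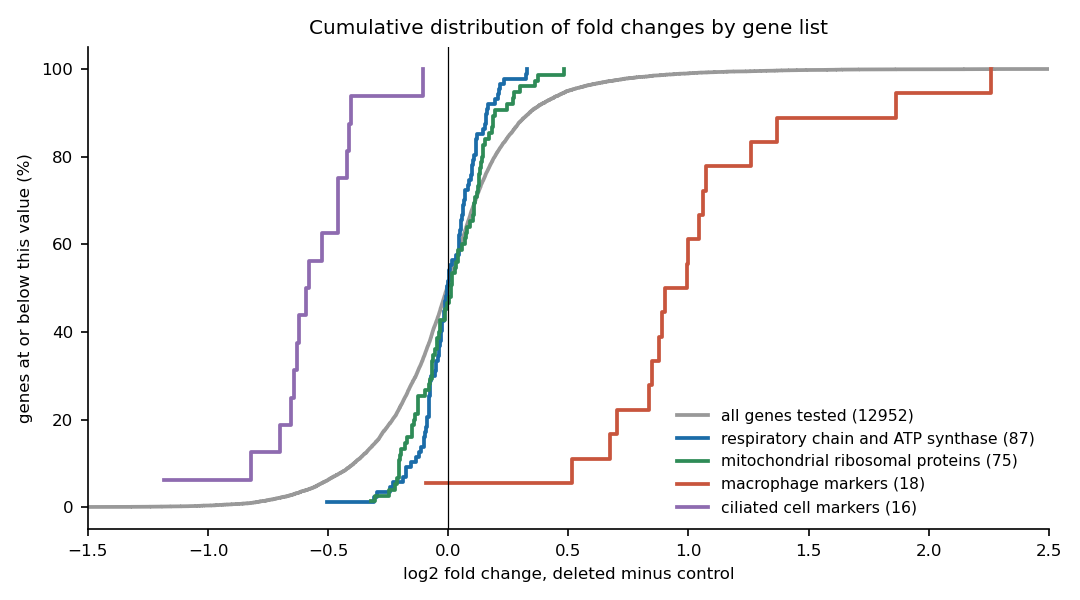
Share of genes (y axis, percent) at or below each log2 fold change (x axis, deleted minus control) for all genes tested and 4 lists. The curves of the respiratory chain and of mitochondrial ribosomal proteins rise steeply around 0, while macrophage markers lie to the right (median 0.95) and ciliated cell markers to the left (median -0.59).

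The isolates also held RNA of other cells. In bulk RNA, fewer cells of a type and less RNA per cell cannot be told apart. By limma 0.625% of all tested genes were called higher and 0.0232% lower, and 6.02% were lower at an unadjusted p under 0.05. Of 18 macrophage markers tested 9 rose and none fell (Gpnmb, Cd68, Marco, Mpeg1, Cybb, Chil3, Fabp4, Cd14 and Mrc1, from log2 0.89 to 2.26). The 18 had a median of 0.95, with 17 values above 0 and 1 below. Their summed signal was 162969 to 217687 in controls and 265653 to 277047 in deleted pools, and none read 0. Of 16 ciliated cell markers, cells that are themselves rich in mitochondria, Ccdc153 fell (-1.18 ± 0.16), 10 were lower at an unadjusted p under 0.05 and all 16 had values below 0 (median -0.59). Their summed signal was 133345 to 200642 in controls and 109604 to 134345 in deleted pools. Airway secretory markers (10, median -0.24) had 1 gene lower, Sox2 (-0.83 ± 0.13). The part of these cells in the respiratory chain values was not tested.

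Other marker lists had no call by limma. Type II cell markers (11 tested) had a median of 0.10, with Etv5 at 0.44 ± 0.22 and Cd74 at 0.41 ± 0.22, and type I markers (8) a median of 0.02, with Ager at 0.61 ± 0.29 and Hopx at -0.18 ± 0.18. Endothelial markers (10, median -0.12) had Ramp2 at -0.19 ± 0.12 and Vwf at -0.20 ± 0.15, and mesenchymal markers (9, median -0.04) Fn1 at 0.48 ± 0.19 and Pdgfra at -0.46 ± 0.24. Lymphocyte markers (9, median 0.40) had Cd2 at 0.84 ± 0.25 and Nkg7 at 0.89 ± 0.35, neutrophil markers (3, median 0.95) S100a8 at 1.01 ± 0.26 and S100a9 at 0.95 ± 0.29, and striated muscle markers (11, median -0.56) Tnni3 at -0.67 ± 0.24 and Myl7 at -0.86 ± 0.34. At an unadjusted p under 0.05 there were 1 mesenchymal, 2 lymphocyte and 2 neutrophil markers higher and 2 striated muscle markers lower. Of all tested genes 6.05% were higher and 6.02% lower at that level.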

How the data were processed

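The authors deposited 1 linear signal intensity per probe set and Affymetrix array, made with MAS5 per the submitters' processing notes, with no version given. MAS5 scales each array alone. Biotin-labelled target was hybridised, per the labels' protocols. Detection calls were not used here.

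Gene names came from GEO's platform annotation. Of 45101 probe sets, 34945 named 1 gene, 932 several, 9160 none here and 64 were controls. Values were floored at 1 before taking log2. Probe sets with a mean log2 below the 40th percentile (8.08, a signal of 271) were left out. The brightest remaining probe set stood for its gene, which gave 12952 genes. R 4.3.3 and limma 3.58.1 (lmFit; eBayes with trend on mean level) gave the group difference, two-sided and with Benjamini-Hochberg adjustment over all 12952 genes and a threshold of 0.05. Values after ± are standard errors of limma's log2 fold change, n = 3 pools per group. With 3 against 3 an exact permutation test cannot go below 0.1. The number of arrays limits the precision. The limma p-values set the group difference against a spread between pools that is moderated across genes. Differences between mice within a pool are not seen.

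Named genes were, in each complex, those called, those whose groups did not overlap and the extremes, with other members free to be named; of other genes, Insig1 and, per list, those called or the 2 with the smallest p. Sftpc was added after its values were seen. The members and lists were chosen with earlier results of these data known. Motifs were chosen after the values were seen. Alternatives were quantile normalization, a median shared by all arrays, an offset of 16 before log2, no trend, array weights, no filter, the 60th percentile, the mean over probe sets, a threshold of 0.1, the pool number as a block and each pool left out. The fit was tested on simulated data. Figures used matplotlib 3.10.9.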

Additional observations from a re-analysis of the deposited data

How the results depend on the processing

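No respiratory chain or ATP synthase gene was called under any alternative run, except Atp5md without control replicate 2, so the count of members called lay between 0 and 1 when single pools were left out. Members whose groups did not overlap numbered 8 of 87 with quantile normalization (17.6% of all genes) and 9 with a shift to a common median (16.6%). With a pool left out they numbered 9 to 16, against 23.4% to 34.3% of all genes. Their median log2 fold change became 0.073 with the common median and lay between -0.02 and 0.04 with a pool left out. In 21 of 1300 member values the shift reached the gene's own SD between pools within groups. Leaving out a pool cannot shift a value that far, so most of the 1300 values say little about stability. Of the 82 members with a value in all 15 alternatives 31 kept their sign throughout, while 5 dim members gave none with the stricter filter. The trend, block and filter settings leave a member's value as it was, so they could neither shift it nor change its sign. The count over all genes was 29 without an intensity trend, 259 with array weights, 129 at a threshold of 0.1 and between 15 and 477 with a pool left out.

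The pool numbers of the titles could not be shown to pair the pools. Deviations of same-numbered pools correlated at 0.07, 0.04 and 0.15, and deleted replicate 2 correlated best with control replicate 1. With the replicate block 132 genes and no member were called. Dim probe sets (Cox7c, Ndufb1, Cox7a1) had intervals too wide to bound a 1.5-fold change, and 4 genes below the filter gave no test. Some bright probe sets also had intervals reaching past 1.5-fold, among them those of Ndufa13, Ndufv1, Ndufb7, Cox6a1 and Cox8a.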

Other observations

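A probe set that names both Ndufb2 and Adck2, and so entered no comparison, read 217, 189 and 177 in control pools and 59.4, 38.1 and 75.3 in deleted pools. All 6 signals lay below the filter, and the probe sets naming Ndufb2 alone gave values above 0. The groups overlapped on the other 9 probe sets shared by several genes, whose log2 differences ran from -0.30 (the dimmer Ndufa11/Ndufa11b) to 0.39 (a dim Ndufa13/Yjefn3). Among them were 0.12 for Ndufs6/Ndufs6b, -0.16 for Ndufab1/Ndufab1-ps and 0.01 for the brighter Ndufb4/Ndufb4b/Ndufb4c.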
